A study of Mus musculus with 27 samples.

Results

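The regions described here are 100 kb windows of the mouse genome in which CpG methylation of cultured microglia averaged less than in most of the genome. Positions listed in both bisulfite tables on chr1 to chr19 were assigned to windows by start coordinate, windows with 200 or more shared positions were kept, and those with a mean methylated fraction under 0.60 in the control library were taken. Of 22844 windows with enough positions, 2051 (8.98%) were taken, and 20793 were the rest. Another 1154 windows held fewer than 200 shared positions and were left out. The windows were chosen by their control fractions, so their low control level is a description and not a result, and no test is given for it. The windows had been labelled large domains of reduced methylation. The data go against that label on size: most of the windows stood alone and drew their low mean from CpG-dense stretches within them, so they are called windows under 0.60 here.

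All samples are wild-type C57BL/6 and come from cortex at postnatal day 1. Microglia, the resident immune cells of the brain, were grown as primary cultures. ND1 microglia received lentiviruses that carry ND1 and M2rtTA, which switches on transgenes in the presence of doxycycline, then 1 addition of doxycycline in a medium for neurons that held the growth factors BDNF, GDNF and NT3, while control microglia carry only the label of a control and their medium is not stated. Methylation was measured by post-bisulfite adaptor tagging in 1 ND1 library and 1 control library, for which no day is given, and RNA in 5 groups of 3 libraries: cultured cortical neurons, ND1 microglia at day 7 and at day 2, and control microglia at day 7 and at day 2. The bisulfite library called ND1 here is titled iN, whereas the RNA libraries are titled microglial ND1. What ND1 stands for is not spelled out in the labels, nor whether the replicates came from different cultures, so p-values measure only the spread between these libraries. Lentiviral transduction reaches some cells and not others, so an ND1 library can hold converted and unconverted cells.

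Cytosine methylation in mammals sits mostly at CpG dinucleotides and covers most of the genome, whereas CpG islands, the CpG-dense stretches at many gene starts, are usually free of it. Islands over developmental regulators such as the Hox genes can stay unmethylated while the genes are silent. Large partially methylated domains, known from cultured cells, tumours and placenta, are a different feature: they are gene-poor, CpG-poor, and lose methylation outside islands.

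The promoters below show CpG-rich sequence from windows under 0.60. The first 5 were taken, among genes in these windows with the largest changes between ND1 and control RNA (Mpped1, Crmp1, Cnih2 and Neurod1 higher, Gatm lower), for having the most listed positions, so they stand for the CpG-rich promoters and not for every gene there. Lrrc4c, chosen after its values were seen, stands for the few windows that are low without CpG density. Each line gives the 250 bases before the gene's start in the RefSeq GRCm38.p6 table, the assembly behind the mm10 build of the files, 5′ to 3′ on the gene's strand, and capitals mark each CG listed in both bisulfite tables.

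Mpped1 (chr15:83779773-83780022, plus strand): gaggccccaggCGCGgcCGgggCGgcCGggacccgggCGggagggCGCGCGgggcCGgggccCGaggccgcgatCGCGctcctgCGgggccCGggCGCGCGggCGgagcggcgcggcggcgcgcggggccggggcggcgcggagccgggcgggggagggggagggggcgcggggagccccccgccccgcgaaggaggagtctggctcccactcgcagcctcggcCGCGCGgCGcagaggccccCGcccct
Crmp1 (chr5:37241808-37242057, plus strand): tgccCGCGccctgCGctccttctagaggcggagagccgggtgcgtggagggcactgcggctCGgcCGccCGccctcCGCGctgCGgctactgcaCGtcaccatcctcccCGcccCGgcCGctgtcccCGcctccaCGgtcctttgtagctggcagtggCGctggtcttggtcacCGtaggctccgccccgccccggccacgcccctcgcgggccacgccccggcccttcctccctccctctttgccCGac
Cnih2 (chr19:5098522-5098771, minus strand): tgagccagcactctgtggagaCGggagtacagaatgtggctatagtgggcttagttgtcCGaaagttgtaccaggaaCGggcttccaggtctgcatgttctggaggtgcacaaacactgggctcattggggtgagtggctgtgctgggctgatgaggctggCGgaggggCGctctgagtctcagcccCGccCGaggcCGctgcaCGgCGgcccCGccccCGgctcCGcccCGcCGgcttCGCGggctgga
Neurod1 (chr2:79456637-79456886, minus strand): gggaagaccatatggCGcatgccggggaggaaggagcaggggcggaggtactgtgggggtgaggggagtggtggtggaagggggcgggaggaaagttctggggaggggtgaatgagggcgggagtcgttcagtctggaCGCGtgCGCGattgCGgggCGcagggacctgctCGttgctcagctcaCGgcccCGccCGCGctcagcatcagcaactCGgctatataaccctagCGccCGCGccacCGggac
Gatm (chr2:122611278-122611527, minus strand): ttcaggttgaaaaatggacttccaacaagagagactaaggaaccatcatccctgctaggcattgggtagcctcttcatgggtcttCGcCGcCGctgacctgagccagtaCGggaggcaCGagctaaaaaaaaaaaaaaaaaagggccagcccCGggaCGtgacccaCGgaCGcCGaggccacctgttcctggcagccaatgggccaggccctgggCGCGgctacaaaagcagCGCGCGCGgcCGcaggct
Lrrc4c (chr2:96317919-96318168, plus strand): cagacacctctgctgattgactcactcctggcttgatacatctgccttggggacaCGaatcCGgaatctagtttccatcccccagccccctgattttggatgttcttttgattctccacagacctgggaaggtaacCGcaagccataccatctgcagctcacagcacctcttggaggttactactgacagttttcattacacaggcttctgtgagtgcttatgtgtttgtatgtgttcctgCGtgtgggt

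The listed CGs in the Mpped1 stretch numbered 24 of 47 and averaged a fraction of 0.0288 in ND1 and 0.0298 in control, with single positions up to 0.1 in ND1 and 0.143 in control. In Crmp1 18 of 30 CGs were listed and averaged 0.0322 in ND1 and 0.0521 in control. All 17 CGs of the Gatm stretch were listed, at 0.00852 in ND1 and 0.00983 in control. Neurod1 had 17 of 22 CGs listed, at 0.0297 in ND1 and 0.0151 in control. The Cnih2 stretch showed an edge: 16 of its 17 listed CGs lay at or under 0.212 in ND1 and 0.159 in control, and the last one, at base 22 of the sequence and so near its end away from the gene, read 0.695 in ND1 and 0.729 in control. Lrrc4c differed in kind, with 4 CGs in 250 bases that averaged 0.334 in ND1 and 0.332 in control.

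CpG-dense stretches set the windows under 0.60 apart from other windows. A stretch was called dense where a 1 kb bin held 20 or more shared positions. The median window under 0.60 had 33.4% of its positions in dense stretches, against 4.51% in the rest. Windows with 30% or more of their positions in dense stretches numbered 1263 (61.6%) among those under 0.60 and 1078 (5.18%) among the rest. Read the other way, 77.3% of the 278 windows with 50% or more dense positions were under 0.60, as were 54.0% of those with 30% or more and 0.710% of the 13521 windows with less than 10%.

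Within windows under 0.60, the dense stretches carried much less methylation than the sequence between them. Across their 711838 dense positions the fraction averaged 0.206 in ND1 and 0.205 in control, with 74.0% of positions at 0.2 or less and 13.1% in ND1 and 13.0% in control at 0.8 or more, and across the positions outside dense stretches 0.725 in ND1 and 0.722 in control. In the rest, dense positions averaged 0.442 in ND1 and 0.440 in control, and the others 0.774 in ND1 and 0.770 in control. Per window, the median level outside dense stretches was 0.722 in ND1 and 0.718 in control for windows under 0.60, against 0.752 and 0.749 in the rest. A median of 31.0% of a window's positions had a fraction of 0.2 or less in ND1 (31.1% in control) and 38.3% had 0.8 or more (38.0% in control), so single windows held both states side by side. In 1188 of the windows (57.9%) the level outside dense stretches was 0.7 or more in control.

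**Figure D1:**
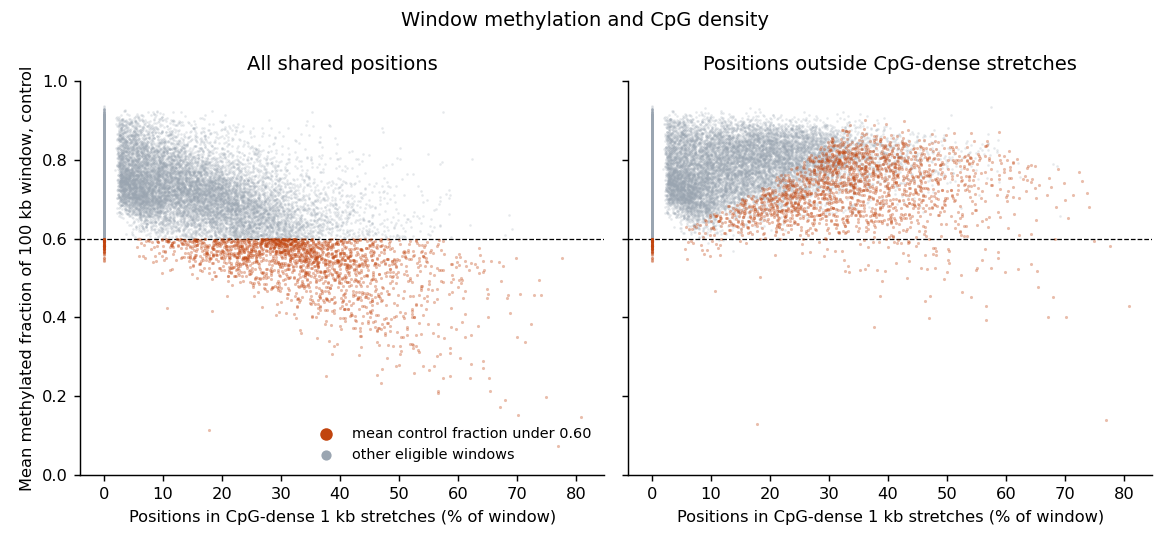
Mean control fraction of each 100 kb window (vertical axis, 0 to 1) against the percent of its positions in CpG-dense 1 kb stretches (horizontal axis), over all positions and over positions outside dense stretches; windows under 0.60 are coloured. Over all positions the windows fall with density, and outside dense stretches 1188 of the 2051 windows under 0.60 lie at 0.7 or more.

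The threshold cut through a continuous range. Just inside it lay chr1:55300000-55399999, at 0.597 in ND1 and 0.599981 in control, and chr4:121500000-121599999, at 0.607 in ND1 and 0.599995 in control. Just outside it lay chr17:20400000-20499999, at 0.606 in ND1 and 0.600024 in control, and chr4:25700000-25799999 around Fut9, at 0.601 in ND1 and 0.600025 in control.

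Most windows under 0.60 had no neighbour under 0.60. The 2051 windows formed 1679 runs, of which 1431 were single windows (69.8% of all), 177 were pairs, and only 266 windows (13.0%) lay in runs of 3 or more. On average a window under 0.60 stood at 0.533 in ND1 and 0.531 in control, while the windows directly before it stood at 0.681 in ND1 and 0.678 in control and those directly after at 0.682 and 0.679. Outside dense stretches the same dip was shallow, with 0.718 in ND1 and 0.715 in control in the window itself against 0.754 and 0.751 in the window before. Windows 1000 kb away stood at 0.694 in ND1 and 0.691 in control on one side and 0.696 and 0.693 on the other. Of the adjoining windows, 18.5% on one side and 18.6% on the other were themselves under 0.60, beside 8.98% of all windows.

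**Figure D2:**
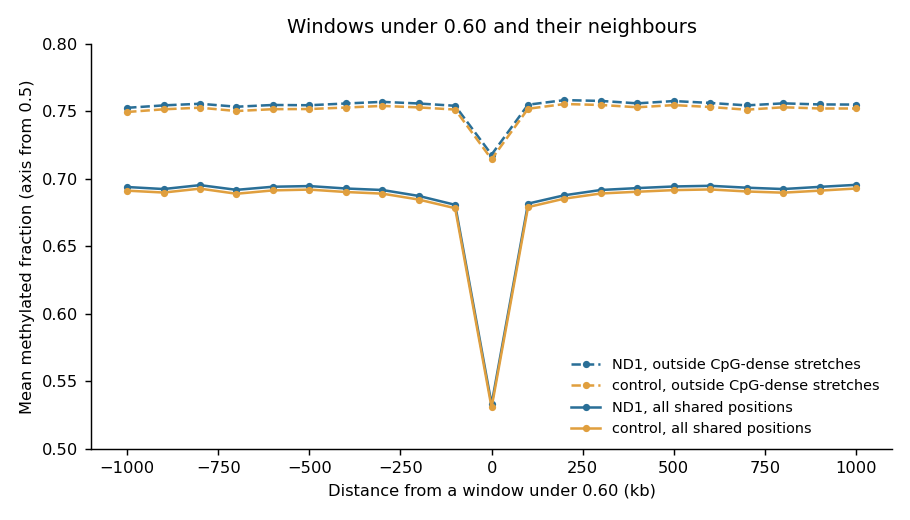
Mean methylated fraction (vertical axis) of windows at distances of up to 1000 kb on either side of a window under 0.60 (horizontal axis, kb), for ND1 and control, over all positions and outside dense stretches. The dip is 1 window wide: 0.533 in ND1 and 0.531 in control at the window itself, and 0.681 and 0.678 at 100 kb before it.

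Chromosomes differed in their share of windows under 0.60. It was lowest on chr14 with 6.57% and highest on chr7 with 13.8%, followed by chr11 with 13.3% and chr19 with 12.2%. The windows also held more genes, counted here by the midpoint of each RefSeq gene. The mean window under 0.60 held 2.08 protein-coding genes and the mean other window 0.748. Of the windows under 0.60, 26.0% had none, against 57.7% of the rest. Dense windows among the rest held 2.70 protein-coding genes each, more than the windows under 0.60.

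The lowest windows lay over clusters of developmental transcription factor genes. The lowest of all was chr15:102900000-102999999 with the Hoxc genes, which set position along the body axis, at 0.0739 in ND1 and 0.0735 in control over 1860 positions. The Hoxa window chr6:52200000-52299999 averaged 0.143 in ND1 and 0.147 in control, and the Hoxd window chr2:74600000-74699999 averaged 0.151 in ND1 and 0.152 in control. The window of Zic1 and Zic4, zinc finger factors of the developing cerebellum, at chr9:91300000-91399999, averaged 0.171 in ND1 and 0.172 in control. These 4 windows had 67.2% to 80.8% of their positions in dense stretches. The other window among the lowest 5, chr13:120000000-120099999, was different: 17.7% of its 265 positions were dense, and it averaged 0.122 in ND1 and 0.115 in control.

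The longest run and 2 of the 5 runs next to it in length, those with the lowest control mean, are described here. A run of 10 windows, chr18:36900000-37899999, spans the clustered protocadherins, cell surface proteins that give single neurons their identity, and averaged 0.528 in ND1 and 0.531 in control. It was also lower than usual outside dense stretches, at 0.606 in ND1 and 0.608 in control. A run of 6 windows over a histone and tRNA gene cluster, chr13:23200000-23799999, averaged 0.417 in ND1 and 0.416 in control. Another run of 6 windows, chr8:70300000-70899999, with genes such as Crtc1, Jund and Rab3a, averaged 0.497 in ND1 and 0.495 in control, and stood at 0.764 in ND1 and 0.761 in control outside dense stretches.

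Few windows had the low level between dense stretches that the label calls for. In 181 windows under 0.60 (8.83%) the control level was also under 0.60 outside dense stretches, as it was in 5 of the rest (0.0240%). By the rule the rest averaged 0.60 or more over all positions, of which a median of 4.51% were dense. Few of them could therefore fall under 0.60 here. Of the 181 windows, 34 (18.8%) lay in runs of 3 or more windows that were all under 0.60. Windows with less than 10% dense positions numbered 96 (4.68%). By gene midpoint, RefSeq places 78 protein-coding genes, 69 pseudogenes, 54 variable segments of antibody genes and 60 small nucleolar RNAs in those 96. Nearly all of the small nucleolar RNAs lay together on chr7 and most of the variable segments on chr12, so these classes were not spread over the 96. Looking at them after their values were known, 2 of the 5 with the lowest control mean lay at the starts of long neuronal genes. The window chr6:45000000-45099999 with Cntnap2 averaged 0.529 in ND1 and 0.513 in control, and chr16:72000000-72099999 with Robo1 averaged 0.542 in ND1 and 0.541 in control. The others held no such gene. Antibody variable segments lay in chr12:114300000-114399999, at 0.537 in ND1 and 0.543 in control. Skint5 lay over chr4:113700000-113799999, at 0.540 in ND1 and 0.544 in control. The pseudogene Gm9425 lay in chr2:149000000-149099999, at 0.537 in ND1 and 0.544 in control.

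Methylation in the windows under 0.60 was nearly the same in ND1 and control cells. Their median fraction was 0.554 in ND1 and 0.552 in control. The difference, ND1 minus control, had a median of 0.00245 with an SD of 0.00476 over windows, and single windows ranged between -0.0197 and 0.0308. In the rest the median difference was 0.00295 with an SD of 0.00638. No window under 0.60 differed by 0.1 or more in either direction, and among all 22844 windows the share that did was 0% higher and 0% lower. With 1 library a group and no read counts in the tables, there is no replicate check and no test, and differences of this size cannot be told apart from a difference between the libraries as a whole, since across all shared positions ND1 averaged 0.704 and control 0.701.

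The small differences were the same in sign for most windows. ND1 was the higher library in 1495 windows under 0.60 (72.9%) and in 14780 of the rest (71.1%). Differences larger than 0.01 in size occurred in 130 windows under 0.60 (6.34%) and in 2914 of the rest (14.01%), and differences larger than 0.02 in 5 (0.244%) and 229 (1.10%). Windows under 0.60 held a median of 900 shared positions and the rest 540. These shares, the SDs above and the correlations below thus do not rest on equal numbers of positions. The part of this was not tested. The control library chose the windows, so the sign of the difference within them is not independent of the choice. When windows were split into alternate positions, the difference on one set and on the other correlated at r = 0.176 across windows under 0.60 and at 0.0970 across the rest, where the positions of a window share both libraries. Had the ND1 library made the choice, 1977 windows would have been taken, and 1948 are common to both, which is 98.5% of ND1's and 94.98% of the control's.

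The windows that moved most were these. In chr1:117700000-117799999 the fraction was 0.613 in ND1 and 0.582 in control over 272 positions, the largest difference of any window under 0.60. The window of Lhx2, a LIM homeobox factor of the developing forebrain, chr2:38300000-38399999, was at 0.358 in ND1 and 0.329 in control over 1157 positions. The window of Marchf1, a ubiquitin ligase gene, chr8:65600000-65699999, was at 0.619 in ND1 and 0.596 in control. On the lower side, the window of Tle1, a transcriptional corepressor, chr4:72200000-72299999, was at 0.401 in ND1 and 0.421 in control. The Plppr1 window chr4:49000000-49099999 was at 0.573 in ND1 and 0.593 in control, and an immunoglobulin heavy chain variable window, chr12:113800000-113899999, at 0.561 in ND1 and 0.577 in control.

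**Figure D3:**
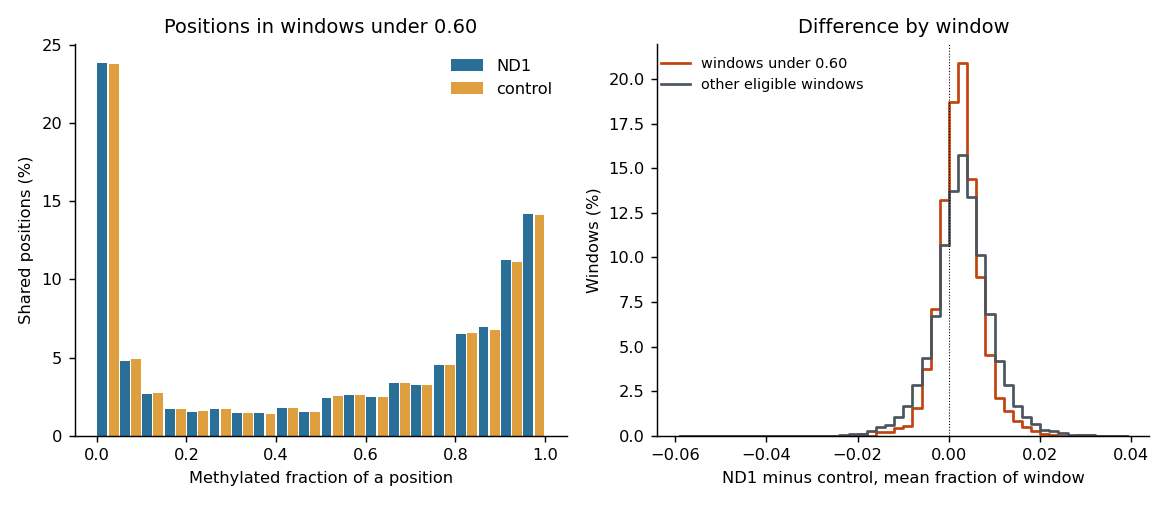
Share of positions by methylated fraction in windows under 0.60 for ND1 and control (first panel), and the difference in mean fraction, ND1 minus control, per window for windows under 0.60 and the rest (second panel). Both libraries have peaks near 0 and near 1, and the differences of the windows under 0.60 lie between -0.0197 and 0.0308.

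Genes were placed by their start site in RefSeq. Of 22185 genes that could be placed, 5257 (23.7%) started in a window under 0.60 and 16928 elsewhere, and 2104 symbols were not placed. Of the genes in windows under 0.60, 3681 had 3 or more shared positions in the 300 bases around the start, and the median promoter stood at 0.0131 in ND1 and 0.0125 in control. Promoters at 0.2 or less made up 88.9% in ND1 and 88.8% in control, against 74.3% and 74.4% among 9802 promoters elsewhere. Genes that were hardly transcribed kept this pattern: with less than 0.1 FPKM in control RNA at day 7, 69.4% of promoters in windows under 0.60 were at 0.2 or less in ND1 and 69.5% in control, against 28.7% and 28.6% elsewhere. Those promoters had a median of 12 shared positions in windows under 0.60 and 6 elsewhere. Promoter positions are among those whose control mean chose the windows, so these shares are a description and not a result. FPKM count sequenced fragments relative to transcript length and library size, so genes are compared per length.

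Genes in windows under 0.60 were more often transcribed than genes elsewhere, in every RNA library. At day 7, 61.9% ± 0.20 of them reached 1 FPKM in ND1 libraries and 51.3% ± 0.330 in control libraries (SD, n = 3 each), against 47.6% ± 0.245 and 45.5% ± 0.225 of genes elsewhere. At day 2 the share was 58.0% ± 0.457 in ND1 and 50.3% ± 0.164 in control libraries, and elsewhere 48.0% ± 0.113 and 44.5% ± 0.119. In neurons it was 61.7% ± 0.276, against 45.6% ± 0.143 elsewhere. The median gene in these windows stood at 3.78 FPKM in ND1 and 1.22 FPKM in control libraries at day 7, at 2.55 FPKM in ND1 and 1.05 FPKM in control libraries at day 2, and at 3.79 FPKM in neurons. Each ND1 library lay above each control library of its day in the share that reached 1 FPKM.

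CpG density went with these shares. Among windows with 30% or more dense positions, a split made after the data were seen, genes in windows under 0.60 reached 1 FPKM at day 7 in 64.0% ± 0.273 of cases in ND1 and 56.5% ± 0.330 in control libraries, and genes in the other dense windows in 64.2% ± 0.587 and 62.6% ± 0.580 (SD, n = 3 each). At day 2 the share was 61.6% in ND1 and 55.4% in control for windows under 0.60, and 64.7% and 60.7% for the other dense windows. In neurons it was 63.3% ± 0.275 for windows under 0.60, against 61.7% ± 0.170 for the other dense windows. The dense windows were not matched exactly: their median share of dense positions was 39.8% among those under 0.60 and 35.4% among the others. In the 181 windows that were also low outside dense stretches, 26.2% of 322 genes reached 1 FPKM in ND1 and 7.25% in control at day 7, and 26.5% in neurons. The part of density in the difference between these windows and the rest was not tested.

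**Figure D4:**
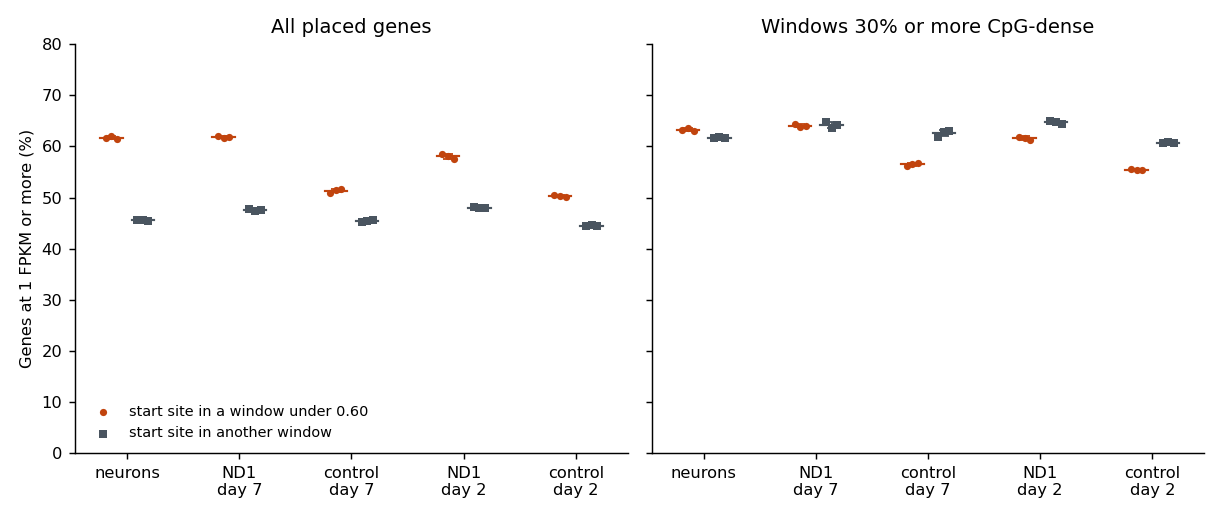
Percent of genes at 1 FPKM or more in each of the 15 RNA libraries (points; short lines give the group mean and, where visible, the SD), for genes in windows under 0.60 and genes elsewhere, over all placed genes and over windows with 30% or more dense positions. In windows under 0.60 the day 7 mean is 61.9% in ND1 and 51.3% in control, and within dense windows it is 64.0% and 56.5%.

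The label of the ND1 libraries was checked first on Neurod1, a basic helix-loop-helix factor of neuronal differentiation whose own gene starts in a window under 0.60 that averaged 0.451 in ND1 and 0.447 in control. It had 3073, 3454 and 3337 FPKM in ND1 libraries at day 2, against 1.04, 1.15 and 1.08 FPKM in control libraries. At day 7 it had 36.7, 32.6 and 32.5 FPKM in ND1 and 1.33, 1.19 and 2.16 FPKM in control libraries. The tables do not separate transcripts of a lentiviral construct from those of the cell's own gene.

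Genes in windows under 0.60 were tested with limma on log2(FPKM + 1) over all 13599 genes with 1 FPKM or more in at least 3 libraries, and called where the adjusted p (Benjamini-Hochberg) was under 0.05 and the log2 fold change was 1 or more in size. In all, 3576 (68.0%) of their 5257 genes passed this filter, against 9187 (54.3%) elsewhere. At day 7, 1075 of the 3576 (30.1%) were higher in ND1 than in control and 733 (20.5%) were lower, beside 25.7% higher and 24.5% lower over all genes tested. Elsewhere the shares were 22.9% higher and 26.4% lower. The median log2 fold change was 0.19 in windows under 0.60, -0.04 elsewhere and 0.04 over all genes tested. In bulk RNA, fewer cells of a type and less RNA per cell cannot be told apart.

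Among genes that passed the filter, a larger share in windows under 0.60 than elsewhere had a control mean under 1 FPKM. Over all placed genes, by contrast, 51.3% in these windows reached 1 FPKM in control libraries at day 7 and 45.5% elsewhere. Of the 3576 tested genes, 869 (24.3%) had a control mean under 1 FPKM at day 7, and 642 of these were higher in ND1 and 0 lower, against 890 and 0 of 1498 (16.3% of those tested) elsewhere. Such a gene reached the filter mostly through another group, where it had to be higher, so these counts support nothing by themselves. Of the 2707 with a control mean of 1 FPKM or more, 433 were higher and 733 lower, against 1217 higher and 2426 lower of 7689 elsewhere. Among these genes the share higher was thus close to that elsewhere, and the share lower was smaller. Within dense windows 769 (25.9%) of 2973 tested genes in windows under 0.60 were higher and 644 (21.7%) lower, against 472 (20.4%) and 608 (26.3%) of 2312 in the other dense windows. These dense counts were not split by control mean, so they include genes that reached the filter through another group.

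At day 2, 414 of the 3576 genes (11.6%) were higher in ND1 and 11 (0.308%) lower, beside 9.1% higher and 0.618% lower over all genes tested. Neurons against control microglia at day 7 gave 1152 higher (32.2%) and 741 lower (20.7%), beside 28.1% and 25.2% over all genes tested. The neuron and the day 7 comparison share their control libraries, so they are given side by side only.

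Methylation of the windows was set beside the calls at day 7. The 631 windows whose called genes were all higher at day 7 had a median of 0.551 in ND1 and 0.549 in control and a median difference, ND1 minus control, of 0.00197 ± 0.00481 (SD over windows), and ND1 was the higher library in 69.1% of them. The 282 windows whose called genes were all lower had 0.562 in ND1 and 0.558 in control a difference of 0.00275 ± 0.00386, and ND1 higher in 80.9%. The 199 windows with calls in both directions had 0.543 in ND1 and 0.542 in control, and ND1 was higher in 79.9%. Windows with tested genes and no call numbered 379, at 0.559 in ND1 and 0.556 in control, with a difference of 0.00256 and ND1 higher in 76.3%. In the 560 windows without a tested gene, ND1 was higher in 68.4%. Among windows with tested genes the share higher in ND1 was lowest where all called genes were higher. With 1 bisulfite library a group, this order was not tested. At the promoters, 93.5% of the 842 called higher with enough positions were at 0.2 or less in both ND1 and control, as were 95.4% in ND1 and 95.6% in control of the 590 called lower.

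Gene families were spread unevenly over these windows. All 39 Hox genes placed and all 59 clustered protocadherins started in windows under 0.60, as did 66 of 72 histone cluster genes, against 23.7% of all genes placed. Of genes for synaptic adhesion and other long neuronal genes 22 of 36 did, of glutamate and GABA receptors 22 of 37, of potassium channels 33 of 91 and of neuron markers 8 of 12. The same held for some lists of other kinds, with 6 of 15 microglia markers, 4 of 7 oligodendrocyte markers and 7 of 16 lamina and heterochromatin genes. It did not hold for 1 of 8 astrocyte markers, 2 of 8 fibroblast and mural markers and 0 of 5 endothelial markers. Cell cycle genes, with 3 of 18, and numbered zinc finger genes, with 76 of 371, were also under the share of all genes placed. Among clustered families of other tissues, 50 of 964 olfactory receptors (5.19%), 21 of 242 vomeronasal receptors, 5 of 104 keratins and 0 of 28 kallikreins did. Lists added after the values were seen gave 105 of 135 genes of developmental transcription factor families (Pax, Sox, Fox, Lhx, Nkx, Dlx, Tbx, Irx, Zic, Pou and kin), 25 of 47 Wnt, Fgf and Bmp ligands, 21 of 38 major histocompatibility genes and 38 of 76 ribosomal protein genes.

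**Figure D5:**
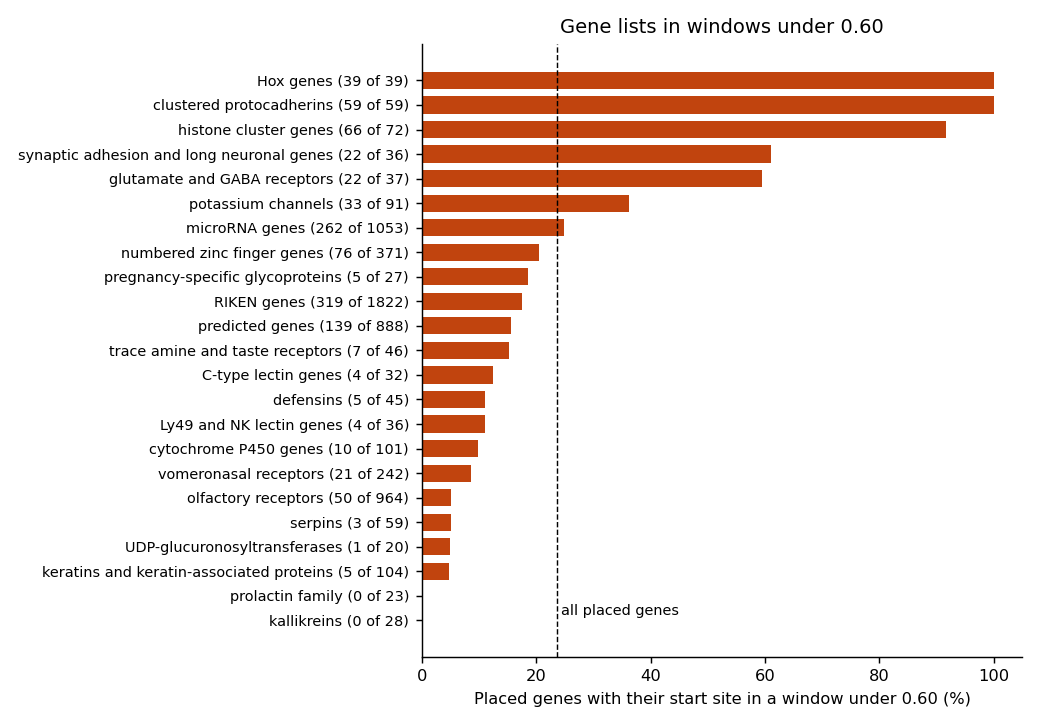
Percent of the placed genes of each of the larger lists that start in a window under 0.60 (bars from 0; the dashed line marks the 23.7% of all placed genes). All 39 Hox genes and all 59 clustered protocadherins do, against 5.19% of olfactory receptors.

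Hox genes lay in the least methylated windows and were close to silent. None of the 39 reached 1 FPKM in any of the 15 libraries, 20 were listed at 0 throughout, and the highest single value was 0.848 FPKM. None could therefore be tested. Their median promoter stood at 0.0311 in ND1 and 0.0356 in control.

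Clustered protocadherins were higher in ND1 at day 7, over a run of windows at 0.528 in ND1 and 0.531 in control. The median over all 59 was 2.81 FPKM in ND1 and 0.0828 FPKM in control libraries. Of 52 tested, 47 were higher and 0 lower at day 7, beside 25.7% and 24.5% over all genes tested, but 48 of the 52 had a control mean under 1 FPKM and so reached the test through groups where they are high. At day 2, 3 were higher and 0 lower, beside 9.1% and 0.618% of all genes tested. In neurons 45 were higher than in control, beside 28.1%. Pcdhac2 had 9.61, 9.49 and 9.21 FPKM in ND1 libraries at day 7, against 0.285, 0.197 and 0.253 FPKM in control libraries, with no overlap. Its log2 fold change was 3.07 (SE 0.06, limma adjusted p = 1.98e-15). Pcdhb17 averaged 6.04 ± 0.04 FPKM in ND1 and 0.131 ± 0.0788 FPKM in control libraries, and Pcdhgc3 41.0 ± 0.454 and 7.15 ± 0.991 FPKM. Genes of the alpha and gamma clusters share their last exons, so the tables may split their fragments uncertainly. In the 181 windows that were low outside dense stretches too, protocadherins made up 26 of 97 tested genes and 25 of 65 higher calls at day 7, and 74 of the 97 had a control mean under 1 FPKM.

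Receptor and channel genes of neurons were mostly called higher in ND1, in these windows and over their whole lists alike. Of 20 tested glutamate and GABA receptor genes, 16 were higher and 0 lower in ND1 at day 7, against 30 and 1 of 37 wherever they lie and 25.7% and 24.5% of all genes tested. All 20 had a control mean under 1 FPKM and so reached the test through other groups, and the median over all 22 in these windows was 4.41 FPKM in ND1 and 0.113 FPKM in control libraries. At day 2, 8 were higher, beside 9.1% of all genes tested, and in neurons 20, beside 28.1%. Gabra2, a GABA-A receptor subunit, had 49.3, 54.7 and 53.9 FPKM in ND1 libraries at day 7 and 0.369, 0.249 and 0.646 FPKM in control libraries. The groups did not overlap, and the log2 fold change was 5.25 (SE 0.10, limma adjusted p = 2.89e-15). Gria2, an AMPA receptor subunit, averaged 42.0 ± 0.899 FPKM in ND1 and 0.846 ± 0.180 FPKM in control libraries, and Grin1, the obligatory NMDA receptor subunit, 11.8 ± 0.147 and 0.125 ± 0.0249 FPKM. Of 26 tested potassium channel genes, 18 were higher and 2 lower, against 46 and 3 of 65 wherever they lie, and 23 of the 26 had a control mean under 1 FPKM. Kcnd2, an A-type channel of dendrites, averaged 9.36 FPKM in ND1 and 0.188 FPKM in control libraries, whereas Kcnk6, a background potassium channel, fell to 1.09 ± 0.169 FPKM in ND1, against 21.9 ± 0.556 FPKM in control libraries.

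Synaptic adhesion and other long neuronal genes gave 19 higher and 0 lower of 22 tested at day 7, against 36 and 0 of 43 wherever they lie. Over all genes tested, 25.7% were higher and 24.5% lower. Of the 22, 20 had a control mean under 1 FPKM. At day 2, 15 were higher, beside 9.1% of all genes tested, and in neurons 22, beside 28.1%. Dlg2, a scaffold of the postsynaptic density, averaged 50.02 ± 2.32 FPKM in ND1 and 0.107 ± 0.0250 FPKM in control libraries at day 7, with a log2 fold change of 5.53. Its promoter was not low: 0.631 in ND1 and 0.501 in control. Rbfox1, a neuronal splicing factor, averaged 38.0 ± 0.534 FPKM in ND1 and 0.120 ± 0.0258 FPKM in control libraries, with a promoter at 0.0440 in ND1 and 0.0222 in control. All 8 neuron markers in these windows were higher at both days, as were all 15 tested wherever they lie. Over all genes tested, 25.7% were higher at day 7 and 9.1% at day 2. Of the 8, 5 had a control mean under 1 FPKM at day 7 and so reached the test through other groups. Map2, a dendritic microtubule protein, averaged 191 ± 7.80 FPKM in ND1 and 1.83 ± 0.388 FPKM in control libraries at day 7.

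Among the largest changes at day 7 was Mpped1, a metallophosphoesterase gene active in the fetal brain. It had 302, 301 and 303 FPKM in ND1 libraries, against 0.0917, 0.0842 and 0.0888 FPKM in control libraries, and a log2 fold change of 8.12 (SE 0.06, limma adjusted p = 1.84e-17). Crmp1, which acts in axon guidance, had 793, 779 and 787 FPKM in ND1 and 2.29, 2.57 and 2.82 FPKM in control libraries (log2 fold change 7.79). Cnih2, an auxiliary protein of AMPA receptors, had 193, 183 and 189 FPKM in ND1 and 0.854, 0.930 and 1.24 FPKM in control libraries. For all 3, the promoters printed above were low in both bisulfite libraries, and the RNA groups did not overlap.

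Developmental transcription factors were a further group. Of the 105 genes of the added list in these windows, 27 were tested. At day 7, 18 were higher and 2 lower, against 22 and 4 of 40 wherever they lie and 25.7% and 24.5% of all genes tested. At day 2, 8 were higher, beside 9.1% of all genes tested. In neurons 20 were higher and 2 lower, beside 28.1% and 25.2%. The control mean was under 1 FPKM for 14 of the 27. Lhx2, whose window differed by 0.0292 in fraction, ND1 minus control, had 51.5, 49.6 and 49.0 FPKM in ND1 and 1.16, 1.16 and 1.64 FPKM in control libraries. Sox11 averaged 82.2 ± 5.12 FPKM in ND1 and 0.285 ± 0.0549 FPKM in control libraries, and its window stood at 0.421 in ND1 and 0.420 in control. Bhlhe22, a basic helix-loop-helix factor outside that list, averaged 104 ± 4.32 FPKM in ND1 and 0.0947 ± 0.120 FPKM in control libraries, and its window stood at 0.384 in ND1 and 0.382 in control.

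Genes of microglia in these windows were lower in ND1 at day 7. All 6 microglia markers that start there were lower, as were all 14 tested wherever they lie, beside 24.5% of all genes tested. The 6 had a median log2 fold change of -4.71, and 0 of 6 were called at day 2. C1qb, a chain of complement C1q, averaged 190.5 ± 36.9 FPKM in ND1 and 5545 ± 222 FPKM in control libraries. Its promoter stood at 0.0230 in ND1 and 0.111 in control, and its window at 0.546 in ND1 and 0.541 in control. Aif1 averaged 21.1 ± 3.02 FPKM in ND1 and 565 ± 50.9 FPKM in control libraries, although its promoter read 0.889 in both. Of 14 tested major histocompatibility genes, 10 were lower and 0 higher, against 19 and 0 of 25 wherever they lie. H2-D1 averaged 180 ± 28.8 FPKM in ND1 and 3349 ± 72.0 FPKM in control libraries. Major histocompatibility genes are near-identical copies of one another in part, so their single values are uncertain. Gatm, which makes the creatine precursor, had 6.71, 6.79 and 7.36 FPKM in ND1 and 52.8, 48.5 and 50.5 FPKM in control libraries at day 7. It was also 1 of the 11 called lower at day 2, with 5.53, 5.83 and 6.23 FPKM in ND1 and 15.6, 16.2 and 15.7 FPKM in control libraries.

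Cell type markers moved with the comparison as a whole. Summed over 15 genes, microglia markers lay between 1029 and 1412 FPKM in ND1 and between 25290 and 26370 FPKM in control libraries at day 7, and neuron markers between 5085 and 5090 FPKM in ND1 and between 32.5 and 41.5 FPKM in control libraries. Markers of other cell types were low: 8 astrocyte markers summed to between 28.4 and 29.9 FPKM in ND1 and between 67.2 and 70.9 FPKM in control libraries, and 8 oligodendrocyte markers to between 9.45 and 9.96 FPKM in ND1 and between 22.3 and 23.95 FPKM in control libraries. The 5 endothelial markers summed to between 0.945 and 1.07 FPKM in ND1 and between 6.79 and 8.297 FPKM in control libraries, and 8 fibroblast and mural markers to between 45.6 and 51.2 FPKM in ND1 and between 51.02 and 64.8 FPKM in control libraries. The part of a changed cell makeup in the counts of genes was not tested. Depth is not given in the tables: FPKM sums lay between 428966 and 739688 per library, and 10706 to 12089 genes reached 1 FPKM.

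Among genes that act on DNA methylation and chromatin, 3 of 17 enzymes and readers of DNA methylation started in windows under 0.60, near the share of all genes placed, and 7 of 16 lamina and heterochromatin genes did. Gadd45b, a stress protein linked to demethylation, averaged 3.31 ± 0.561 FPKM in ND1 and 49.5 ± 3.07 FPKM in control libraries at day 7, and was lower at day 2 too (log2 fold change -1.22). Tdg, a glycosylase that removes oxidized methylcytosine, averaged 4.82 ± 1.10 FPKM in ND1 and 1.51 ± 0.695 FPKM in control libraries, with a log2 fold change of 1.23 (SE 0.23). Mbd3 averaged 65.9 ± 2.09 FPKM in ND1 and 65.6 ± 2.59 FPKM in control libraries. Of these 7 lamina and heterochromatin genes, 5 were higher and 1 lower at day 7: Cbx5, which encodes HP1 alpha, averaged 53.2 ± 2.96 FPKM in ND1 and 5.78 ± 0.218 FPKM in control libraries, and Lmna, which encodes lamin A and C, 13.8 ± 1.01 and 63.4 ± 5.25 FPKM. Histone cluster genes, most of whose transcripts lack a poly(A) tail and are not caught by a poly(A)-based mRNA kit such as the one in the labels, gave 5 higher and 4 lower of 20 tested, close to the 25.7% and 24.5% over all genes tested. Hist3h2ba averaged 138 ± 4.09 FPKM in ND1 and 2.49 ± 0.596 FPKM in control libraries, and Hist1h2bc 12.4 ± 0.802 FPKM in ND1 and 128 ± 9.28 FPKM in control libraries. Beside the same shares over all genes, of 73 tested numbered zinc finger genes 25 were higher and 12 lower, and of 37 ribosomal protein genes 0 were higher and 11 lower. Of 8 Wnt, Fgf and Bmp ligands 6 were higher and 1 lower. The control mean was under 1 FPKM for 16 of the 73 zinc finger genes, 12 of them called higher. It was under 1 FPKM for 6 of the 8 ligands, 5 of them called higher. Such genes reached the test mostly through groups where they are high. Ribosomal protein and histone genes have near-identical copies, which makes their single values uncertain.

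The windows that were low without CpG density held few transcribed genes. Of 88 genes placed in the 96 windows with less than 10% dense positions, 11.7% reached 1 FPKM in ND1 and 2.27% in control at day 7. Of the 13 that were tested, 8 were higher and 2 lower at day 7, beside 25.7% and 24.5% over all genes tested, but 11 of the 13, all 8 higher ones among them, had a control mean under 1 FPKM and reached the test through other groups. Cntnap2, a neuronal adhesion protein, had 9.32, 10.1 and 9.18 FPKM in ND1 libraries at day 7, against 0.0963, 0.0398 and 0.186 FPKM in control libraries. Robo1, an axon guidance receptor, had 18.04, 19.6 and 18.9 FPKM in ND1 and 0.203, 0.288 and 0.298 FPKM in control libraries. Lrrc4c, a netrin-G ligand whose promoter is printed above, had 9.59, 9.51 and 9.404 FPKM in ND1 and 0.236, 0.129 and 0.205 FPKM in control libraries, with a log2 fold change of 3.14 (SE 0.07, limma adjusted p = 1.32e-14). In none of the 3 did the groups overlap. On the lower side, Marco, a scavenger receptor of macrophages, had 1.49, 1.37 and 1.38 FPKM in ND1 and 18.8, 19.5 and 21.3 FPKM in control libraries. These genes were named after their values were seen.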

How the data were processed

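CpG methylation was measured in 1 ND1 and 1 control library and RNA in 15 libraries (5 groups of 3), and another 10 chromatin immunoprecipitation samples were not analysed here. The bisulfite tables, as deposited, hold a methylated fraction per CpG position on mm10 with no read counts, so depth is unknown and no counting interval is given. The software behind them is not given in the sources used here. Per gene, the RNA tables hold FPKM computed by the authors with TopHat, Bowtie2, Cuffdiff and Cufflinks on mm10, per the submitters' processing notes.

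Positions were joined on chromosome and start: 14695943 were shared on chr1 to chr19, which is 93.2% of ND1's and 95.8% of the control's. All interior positions in RefSeq promoters read CG. Symbols were matched to RefSeq (GRCm38.p6), 23041 by symbol and 1107 by synonym of 24293 listed, with 141 unmatched and 4 entries of duplicated symbols left out. Values were fitted as log2(FPKM + 1) with limma 3.58.1 in R 4.3.3 over all 5 groups with an intensity trend and 10 residual degrees of freedom, a fold change on this scale understating that of low genes. Other steps used Python 3.11.15, pandas 2.3.3 and numpy 2.4.6. The test was tried on simulated data first. Named windows were the lowest 5, the 3 largest differences each way, the 3 longest runs (ties, here 5 runs of 6 windows, by lower control mean) and those next to 0.60; named genes were list members and the largest called changes in each comparison, and genes outside this rule are marked as chosen after their values were seen. The members and lists were chosen with earlier results of these data known. Alternatives were another threshold, window size and offset, positions outside dense stretches, another pseudocount, filter and scaling, a replicate block, and each library left out.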

Additional observations from a re-analysis of the deposited data

How the results depend on the processing

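The number of windows depended on how they were cut: 992 with a control mean under 0.55, 4654 under 0.65, 5100 of 50 kb, 773 of 200 kb, 180 from positions outside dense stretches only and 519 by the median fraction. In each of these settings no window differed by 0.1 or more between ND1 and control. Restricting genes to windows in runs of 3 or more left 236 higher and 171 lower in ND1 at day 7, 80 and 3 at day 2, and 250 and 159 in neurons, since fewer windows were counted. At day 2 a pseudocount of 0.1 FPKM gave 792 higher and 23 lower, quantile normalization gave 22 lower, and counting only genes that lie wholly in these windows gave 275 higher; the cause was not tested. The share of genes transcribed in control libraries at day 7 was 67.9% at 0.1 FPKM, 40.0% at 5 FPKM and 50.9% for genes wholly inside. Quantile normalization turned the day 7 change of Eef1a1, which was not called, to 1.2 on the log2 scale (main value -0.51); it gave 1006 higher and 744 lower at day 7. With the replicate number as a block, counts were 1074 higher and 732 lower at day 7, 414 and 12 at day 2, and 1151 and 740 in neurons; of 30 pairs of equal number 2 had a correlation of deviations over 0.1 (-0.226 to 0.161), so the samples share only a number. Leaving out each library in turn gave 1062 to 1085 higher and 717 to 739 lower at day 7, 391 to 423 and 10 to 12 at day 2, 1068 to 1153 and 714 to 748 in neurons, and a transcribed share of 51.2% to 51.5%. Windows with 30% or more dense positions, added after seeing the data, gave 769 higher and 644 lower at day 7. The methylation values rest on 1 library a group, so their replicate error is unknown.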

Other observations

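Some values belong to no comparison above and were picked after they were seen. The window chr13:120000000-120099999, the lowest one that is not CpG-dense, holds Gm21188, with 4.47, 3.93 and 4.08 FPKM in ND1 libraries at day 7 and 136, 116 and 123 FPKM in control libraries. At day 2 it had 74.7, 84.7 and 90.2 FPKM in ND1 and 141, 144 and 143 FPKM in control libraries. The ND1 libraries lay below the control libraries on both days. Ndn, an imprinted gene in a window that was low outside dense stretches too, averaged 155 ± 2.15 FPKM in ND1 and 5.73 ± 0.606 FPKM in control libraries at day 7 (SD, n = 3 each), and its window stood at 0.521 in ND1 and 0.524 in control. Level along the genome was smoother once dense stretches were set aside: the control means of adjoining windows correlated at r = 0.709 outside dense stretches and at 0.289 over all positions, where neighbouring windows share the library.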
